A study of Mus musculus with 21 samples.

Results

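Oocytes of aged mice that had received LRP1high cells were compared with oocytes of aged mice that had received no cells. The comparison holds 5 RNA libraries of the 21 in the series, 3 from Aged + LRP1high and 2 from Aged, chosen by their labels alone. Both groups were female mice, ICR by the study's methods, 18 months old. The series' design text calls the cells MII oocytes, whereas the methods describe release from follicles opened with a needle and name no stage, so the stage is left unnamed below. Aged + LRP1high mice had been given mesenchymal stem cells from human umbilical cord, placed under the ovarian capsule 3 weeks before collection and sorted for high LRP1, a receptor of the LDL receptor family. Whether the Aged mice had a mock operation, and how many oocytes or animals went into a library, is not given in the sources used here. The labels call the libraries biological replicates, but none is tied to an animal, so p-values measure the spread between these libraries, which may be technical. Oocytes of Young mice (6 to 8 weeks) and of Aged + Unsorted and Aged + LRP1low mice entered the model to estimate the spread.

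A full-grown oocyte transcribes little and lives on RNA stored during growth. Its stores are rich in zona pellucida proteins, secreted growth factors, maternal-effect proteins and the machinery that holds messages silent and later destroys them. It is also packed with mitochondria, whose small circular genome encodes core proteins of the respiratory chain, 2 rRNAs and 22 tRNAs. That genome is transcribed as long precursors from both strands, and the tRNAs are cut out between the longer genes. Levels are given as FPKM, which is scaled to gene length and library size, so that genes can be compared with each other. In bulk RNA, fewer cells of a type and less RNA per cell cannot be told apart.

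The Aged libraries stood apart from the Aged + LRP1high libraries, and from each other, before any gene was tested. Their depth, from the ratio of coverage to FPKM, was 0.578 and 0.791 aligned gigabases, against 3.15, 2.29 and 2.72 in Aged + LRP1high. Genes at an FPKM of 1 or more numbered 27970 and 11047 in Aged and 11026, 8071 and 4525 in Aged + LRP1high. The median FPKM of 10 oocyte markers, among them Zp3, Gdf9 and Dppa3, was 11.6 and 716 in Aged replicates 1 and 2. In Aged + LRP1high it was 799, 687 and 161, so that Aged replicate 1 alone was poor in oocyte RNA, although each library held all 10 markers at 1 FPKM or more. Of 1422 olfactory and vomeronasal receptor genes, which are best known from sensory neurons of the nose, 65.7 and 15.1% reached an FPKM of 1 in Aged, against 1.27, 0.633 and 0.281% in Aged + LRP1high. The gene model Gm10800 held 42.6 and 17.4% of the TPM of the Aged libraries and at most 1.52% in Aged + LRP1high.

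The oocyte markers summed to 153 and 9051 FPKM in Aged and to 9246, 8297 and 3507 in Aged + LRP1high. Each list of markers of other ovarian cells summed to less than that in the same library, but in Aged replicate 1 these lists together summed to more than the oocyte markers. The median of the immune markers there, 11.7 FPKM, was about that of the oocyte markers, 11.6 FPKM. The 10 granulosa and cumulus markers summed to 43.8 and 19.7 FPKM in Aged and to 18.0, 34.2 and 31.4 in Aged + LRP1high, ranges that overlap. In Aged + LRP1high replicates 2 and 3 most of the sum was Gja1, at 29.2 and 31.1 FPKM. Of the 10 markers, 6 and 4 reached 1 FPKM in Aged and 3, 3 and 1 in Aged + LRP1high. Those listed at 0 numbered 3 and 6 in Aged and 5, 2 and 6 in Aged + LRP1high. The 7 immune markers, at 57.8 and 42.9 FPKM in Aged, summed to 0.0194, 1.35 and 0.866 in Aged + LRP1high. Of these 7, 1 and 4 were listed at 0 in the Aged libraries and 6, 1 and 4 in Aged + LRP1high. Ptprc, the CD45 antigen of all leukocytes, was at 11.7 and 6.15 FPKM in Aged and at 0, 0.243 and 0.524 in Aged + LRP1high. Cd68 and Cd79a, in contrast, were at 13.0 and 14.0 FPKM in Aged replicate 1 and at 0 in Aged replicate 2. The 6 stromal markers summed to 32.6 and 0.974 FPKM in Aged and at most 1.25 in Aged + LRP1high. The 6 luteal markers summed to 22.2 and 9.06 FPKM in Aged against 0.966 to 40.2, and the 4 endothelial markers to 20.9 and 2.196 against 0.988 to 10.1. Red blood cell markers were all listed at 0 in Aged replicate 1 and summed to 28.2 FPKM in Aged replicate 2. Across these 7 lists no marker was called by the test described below (limma). At an unadjusted p under 0.05 by limma, 3 of 9 granulosa markers tested, 1 of 5 luteal, 1 of 6 immune and 1 of 3 endothelial markers were lower in Aged + LRP1high. At that p and a fold over 1.5, 9.94% of all genes were lower. Inha, the alpha subunit of inhibin, was one of these granulosa markers, at 10.5 and 11.7 FPKM in Aged and 0.798, 1.34 and 0 in Aged + LRP1high. The granulosa list did not share a direction. Its median change in log2(FPKM + 1) was 0.06, with Gja1 at 2.05 and Inhba at 0.06.

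**Figure D1:**
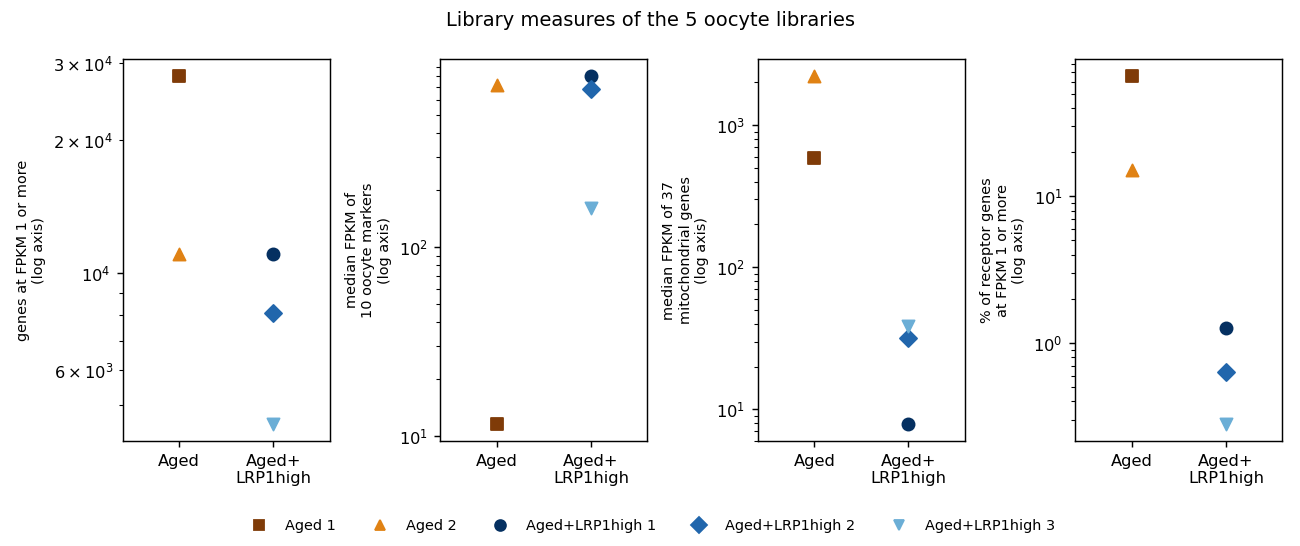
Genes detected, oocyte marker level, mitochondrial gene level and share of receptor genes detected, each on a log axis, with a point for each of the 2 Aged and 3 Aged+LRP1high libraries. The groups do not overlap except for the oocyte markers, where Aged replicate 1 (11.6 FPKM) lies below the other 4 libraries (161 to 799).

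Of 5 such library measures, genes detected, the mitochondrial median and the share of receptors detected separated the groups. The two-sided exact permutation test gave p = 0.1 for each, the smallest p that 3 libraries against 2 allow (0.167 after Benjamini-Hochberg adjustment over the 5 measures). The mean number of genes detected was 7874 ± 3255 (SD, n = 3) in Aged + LRP1high and 19508.5 ± 11966 (SD, n = 2) in Aged. The oocyte marker median and the median of 86 nuclear respiratory chain genes differed by less than the spread between libraries (exact permutation p = 0.6 and 0.8). The separation in genes detected was narrow, between 11047 and 11026 genes in the nearest libraries, and depended on the unit and threshold (exact permutation p = 0.3 with TPM and 0.6 at an FPKM of 0.1 or more). The share of receptors detected overlapped at 0.1 FPKM (exact permutation p = 0.4). The difference in mean genes detected, -11634.5, was -3173 without Aged replicate 1 and -20096 without Aged replicate 2.

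The RNAs of the mitochondrial genome had the lowest median change of the gene groups examined. Of its 37 genes, 35 were lower in all 3 Aged + LRP1high libraries than in both Aged libraries, against 12.4% of the 28004 genes tested. The tRNAs lay farthest apart, and 2 of them are shown: mt-Tr as the only mitochondrial gene called, and mt-Te, from the opposite strand, as the one whose levels were most alike among the treated libraries. The sequences follow the GENCODE transcripts of GRCm38, with the anticodon in capitals. mt-Tr, the arginine tRNA, lies at chrM:9808-9875 on the plus strand, and mt-Te, the glutamate tRNA, at chrM:14071-14139 on the minus strand.
mt-Tr: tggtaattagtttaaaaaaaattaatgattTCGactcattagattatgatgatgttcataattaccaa
mt-Te: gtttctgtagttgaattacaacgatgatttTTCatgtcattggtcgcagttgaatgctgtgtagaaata

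mt-Tr had an FPKM of 292 and 2198 in the Aged libraries and of 1.25, 0.787 and 3.57 in Aged + LRP1high. Every treated library was far below the lower of the Aged libraries. The log2(FPKM + 1) value fell by 8.25 (SE 1.52, adjusted p = 0.0439 by limma over all genes, lower in 3 of 3 libraries). mt-Te was at 729 and 1791 FPKM in Aged and at 46.4, 55.3 and 43.0 in Aged + LRP1high, a change of -4.55 (SE 1.26) that was not called (adjusted p = 0.117). The median of the 22 tRNAs was 605 and 2195 FPKM in Aged and 4.01, 22.3 and 33.2 in Aged + LRP1high. All 22 were lower in every treated library and had an unadjusted p under 0.05 by limma, and 1 was called. Of all genes tested, 12.4% lay below both Aged libraries and 0.753% were called lower. At that p and a fold over 1.5, 9.94% were lower. The labels give polyA RNA, and whether these reads come from the cut-out tRNAs or from their precursors was not tested.

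The rRNAs and the protein genes also lay lower, but by less. The median of mt-Rnr1 and mt-Rnr2, the small and large ribosomal RNAs of the mitochondrion, was 702 and 3782 FPKM in Aged and 279, 359.7 and 263 in Aged + LRP1high. mt-Rnr2 changed by -2.29 (SE 0.76, adjusted p = 0.207) and mt-Rnr1 by -2.65 (SE 0.74, adjusted p = 0.12). The 13 protein genes had a median of 537 and 2189 FPKM in Aged and of 147, 128 and 43.5 in Aged + LRP1high. Of them 11 (84.6%) lay below both Aged libraries in all treated ones, beside 12.4% of all genes. Among the complex I subunits, mt-Nd2 was at 726 and 2999 FPKM in Aged and at 147, 70.2 and 52.9 in Aged + LRP1high, and its change of -4.16 (SE 0.87) was just short of the threshold (adjusted p = 0.0543). mt-Nd4l, another complex I subunit, was at 268 and 1963 FPKM against 9.71, 12.6 and 15.55, a change of -5.76 (SE 1.31, adjusted p = 0.0662). mt-Co1, the catalytic subunit of complex IV, was at 587 and 2808 FPKM against 312, 205 and 43.5 (change -3.18, adjusted p = 0.309). The exceptions were mt-Cytb, the core subunit of complex III, and mt-Atp6, a subunit of ATP synthase. mt-Cytb was at 834 and 2597 FPKM in Aged and at 1175, 277 and 416 in Aged + LRP1high, so that replicate 1 of the treated group lay between the Aged libraries. mt-Atp6 overlapped in the same library, at 385 and 1652 FPKM in Aged against 755, 308 and 59.5.

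The proportions of the classes differed between the groups as well. The tRNA median was 0.861 and 0.580 of the rRNA median in the Aged libraries and 0.0144, 0.0619 and 0.126 of it in the Aged + LRP1high libraries, ranges that do not overlap. Levels were nearly even along the genome in Aged, where the 90th percentile of the 37 genes was 2.87 and 2.41 times the 10th, and uneven in Aged + LRP1high (348, 21.99 and 10.2 times). mt-Tg, the glycine tRNA, was the lowest of the 37 in both Aged libraries, at 65.1 and 363 FPKM, and in Aged + LRP1high replicate 1, at 0.0887. A like even pattern was present in Young replicate 1, where the ratio of percentiles was 2.37, and in both Aged + LRP1low libraries (2.61 and 2.96), whose oocyte marker medians were 0.892, 5.02 and 7.77 FPKM. The other 4 oocyte libraries were uneven. The ratio of percentiles was 37.9 and 3876 in Young replicates 2 and 3, and 6.15 and 420.2 in the Aged + Unsorted libraries. Their tRNA medians were 0.0480, 0.00187, 0.0569 and 0.00286 of their rRNA medians. The part of library depth and composition in these levels was not tested. Without Aged replicate 1 the median change of the tRNAs was -7.20 in place of -6.11, that of the protein genes -4.31 in place of -3.63 and that of the rRNAs -3.68 in place of -2.47.

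**Figure D2:**
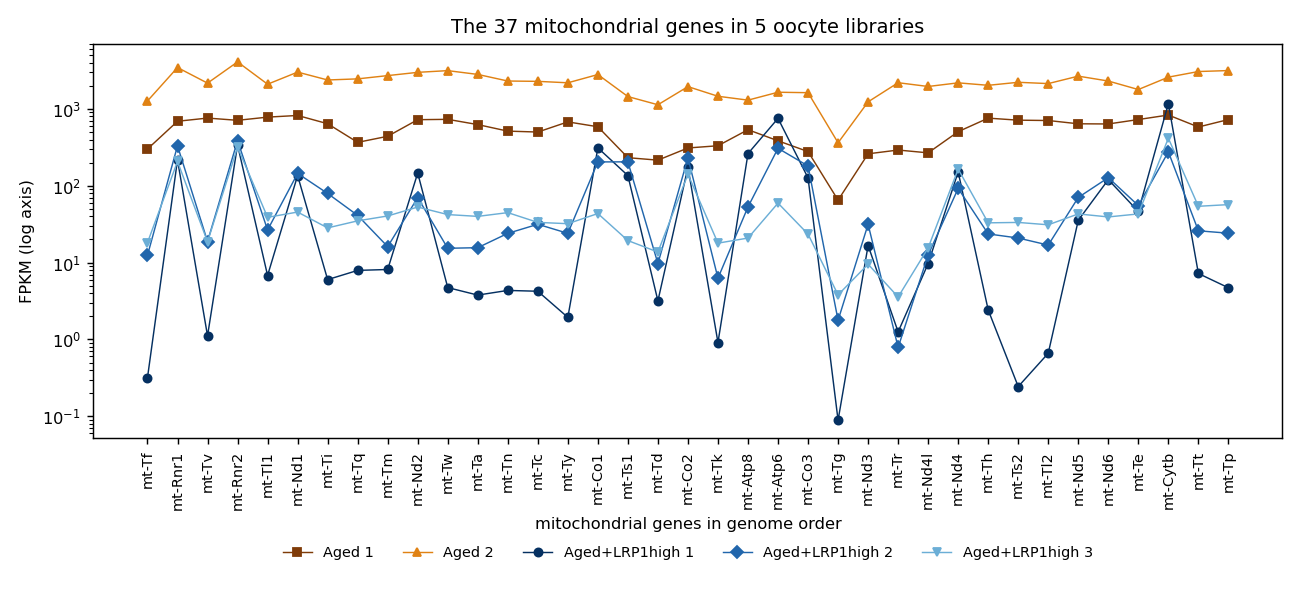
FPKM (log axis) of the 37 mitochondrial genes in genome order, one line for each of the 2 Aged and 3 Aged+LRP1high libraries. The Aged lines are high and nearly even (tRNA medians of 605 and 2195 FPKM), whereas the Aged+LRP1high lines rise at the rRNAs and protein genes and drop at the tRNAs (medians of 4.01, 22.3 and 33.2 FPKM).

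Over the 28004 genes whose mean over the 12 oocyte libraries reached 1 FPKM, 5 were called higher and 211 lower in Aged + LRP1high than in Aged. A call needed a change of over 1.5-fold together with an adjusted p under 0.05 by limma on log2(FPKM + 1), a scale that understates the change of genes at low levels. The calls are 0.0179% and 0.753% of the genes tested, against which the shares within gene groups are read. At an unadjusted p under 0.05, 259 genes (0.925%) were higher and 2784 (9.94%) lower. The middle of all genes itself was shifted, with a median change of -1.05, which was 0.03 without Aged replicate 1, 0.04 under quantile normalization and -1.58 under median-of-ratios scaling. Among the 4066 genes that averaged 10 FPKM or more, the median change was 0.68, opposite in sign to that of all genes.

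The number of calls moved with the libraries in the fit. Without any one of the Aged + LRP1high libraries none was made, although 209 to 418 genes were higher and 1877 to 2709 lower at an unadjusted p under 0.05. Without Aged replicate 1 there were 9 higher (0.0321%) and 1246 lower (4.45%), and without Aged replicate 2 there were 225 and 10578. Of the 211 genes called lower with all libraries, 208 were among those called without Aged replicate 1 and 211 among those called without Aged replicate 2. Of the 5 called higher, 3 and 5 were. Quantile normalization left 1 higher (0.00357%) and 7 lower (0.025%). A fit of the 8 libraries with an oocyte marker median of at least 50 FPKM, which leaves out Aged replicate 1 and was chosen after seeing the data, gave 13 higher (0.0464%) and 2193 lower (7.83%). In each of the fits that leave out an Aged library, a single library stands for the Aged group and is assumed to vary like the other groups. Without Aged replicate 2 that library is Aged replicate 1, the one poor in oocyte RNA.

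**Figure D3:**
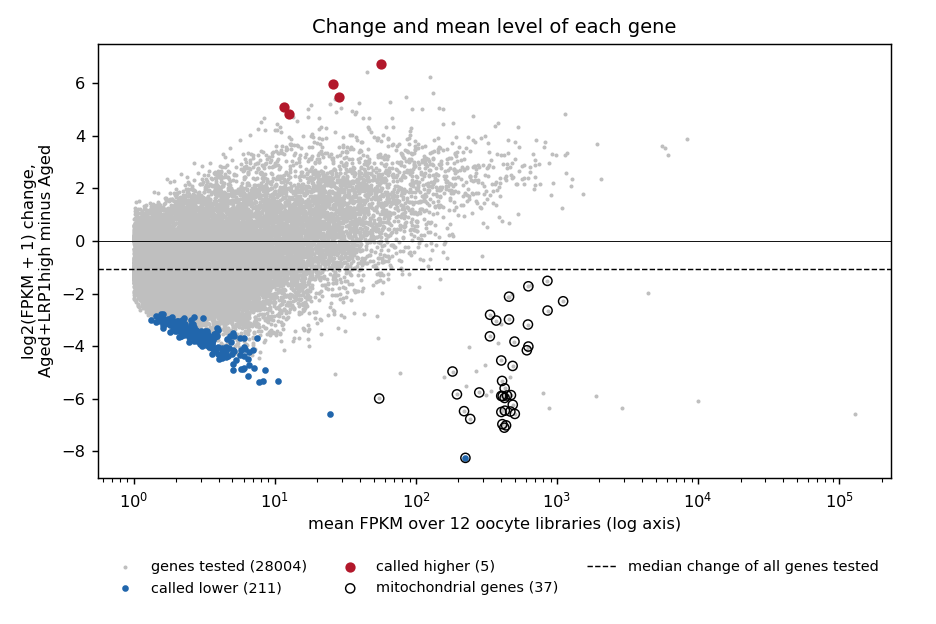
Change in log2(FPKM + 1) between Aged+LRP1high and Aged oocytes against the mean FPKM over 12 oocyte libraries (log axis), one point a gene, with called and mitochondrial genes marked and the median change of -1.05 as a dashed line. The genes called lower form a band at low mean levels, with mt-Tr as the lowest of them, and the mitochondrial genes form a separate group of high level and lower value.

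The 5 genes called higher were Npm3, Ssu72, AA465934, 3110045C21Rik and 5033426E14Rik. Npm3 (chr19:45747734-45749591), a histone chaperone of the nucleoplasmin family, had no FPKM above 0 in Aged and stood at 14.4, 69.9 and 19.4 in Aged + LRP1high (adjusted p = 0.0358). Its relative Npm2, the oocyte's own nucleoplasmin, was at 26.2 and 752 FPKM in Aged and at 749.8, 1560 and 653 in Aged + LRP1high and was not called. Ssu72 (chr4:155704800-155733879), a phosphatase of the tail of RNA polymerase II, was at 1.10 and 0 FPKM in Aged and at 42.2, 67.0 and 90.9 in Aged + LRP1high, a change of 5.48 (SE 1.01, adjusted p = 0.0439). All 3 treated libraries were above both Aged libraries for each of the 5 genes.

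The other 3 are non-coding transcripts. AA465934 (chr11:83291699-83294632) was at 31.1, 229 and 165 FPKM in Aged + LRP1high (adjusted p = 0.0379). The antisense RNA 3110045C21Rik (chr1:169969409-169972396) was at 38.8, 96.9 and 64.1 FPKM (adjusted p = 0.046) and the intergenic RNA 5033426E14Rik (chr8:107869685-107885011) at 14.9, 64.0 and 38.7 (adjusted p = 0.0487). Neither Aged library listed any of the 3 above 0, and no fold is given for that reason. A listed 0 was not rare in Aged: of 85 cytosolic ribosomal protein genes, which every cell uses, 14 and 5 were at 0 in the Aged libraries and 1, 1 and 5 in Aged + LRP1high. Without Aged replicate 1, 3 of the 5 remained called (adjusted p = 0.0128 for Npm3, 0.041 for Ssu72, 0.0493 for AA465934, 0.0996 for 3110045C21Rik and 0.0951 for 5033426E14Rik).

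The 211 genes called lower were weakly expressed and of many types. They comprise 72 protein-coding genes, 63 processed and 9 unprocessed pseudogenes, 18 provisional transcript models, 17 antisense and 14 intergenic RNAs, 3 small nucleolar RNAs, 2 small nuclear RNAs and 2 immunoglobulin variable segments, among others. Their median FPKM was 10.4 and 12.003 in the Aged libraries. Of them, 207 were under an FPKM of 1 in every Aged + LRP1high library and 70 were listed at 0 in all 3. The fitted falls ran from 2.77 to 8.25 on the log2 scale, which for genes at 0 depends on the pseudocount. Of 9938 processed pseudogenes, 3544 passed the filter of 1 FPKM. Genes can pass it through the libraries where they are high, so shares called by type describe filtered genes and support no direction. Among protein-coding genes the called share was 0.429% and among processed pseudogenes 1.78%, beside 0.753% of all genes. A total of 208 of these genes were also called without Aged replicate 1.

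Genes of small structured RNAs were among the largest falls. Snord49b, a box C/D small nucleolar RNA of the kind that guides ribose methylation of ribosomal RNA, lies at chr11:62603079-62603150 on the plus strand and is shown with its C and D boxes in capitals, since these short motifs define the class.
Snord49b: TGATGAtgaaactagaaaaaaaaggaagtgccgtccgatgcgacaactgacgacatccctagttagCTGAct
It was at 8.86 and 88.5 FPKM in Aged and listed at 0 in all 3 Aged + LRP1high libraries (adjusted p = 0.047). The snoRNA Gm23015 was at 24.1 and 65.3 FPKM in Aged and the snRNA Gm23092 at 20.9 and 73.6, and neither was above 0 in a treated library (adjusted p = 0.0358 and 0.0358). Of 1507 snoRNA genes, 377 passed the filter, and 0.796% of these were called lower, close to the share of all genes. The same limit of the filter holds for this share. The labels give polyA RNA, and whether these reads come from the mature small RNAs was not tested.

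Pseudogenes and immune receptor segments showed the same form. The processed pseudogene Gm13245 stood at 101 and 101 FPKM in Aged and at 0, 0.218 and 0 in Aged + LRP1high, and fell by 6.58 (SE 1.05, adjusted p = 0.0379). Among those listed at 0 in every treated library, Gm37713, also a processed pseudogene, was at 31.8 and 26.2 FPKM in Aged (adjusted p = 0.0358) and Gm12571 at 16.7 and 88.5 (adjusted p = 0.0442). Ighv8-2, an antibody heavy chain segment, was at 27.0 and 29.9 FPKM in Aged, the defensin pseudogene Defb44-ps at 14.0 and 55.3 and the transcript model Gm38087 at 26.7 and 44.1, again with 0 in the treated libraries (adjusted p = 0.0358 for each). Reads of pseudogenes can be shared with their parent genes, which makes these levels uncertain.

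The 8 protein-coding genes with the largest falls had varied roles. P3h3, a collagen prolyl hydroxylase, was at 21.4 and 42.4 FPKM in Aged and at 0, 0.285 and 0 in Aged + LRP1high, and fell by 4.84 (SE 0.78, adjusted p = 0.0379). Cyren, a regulator of DNA end joining, was at 31.2 and 26.5 FPKM in Aged and at 0, 0.122 and 0 in Aged + LRP1high, and fell by 4.84 as well (SE 0.79). Slc25a12, the aspartate-glutamate carrier of the inner mitochondrial membrane, was at 19.3 and 34.9 FPKM in Aged and at 0.168, 0.762 and 0.202 in Aged + LRP1high, a fall by 4.32 (SE 0.62, adjusted p = 0.0358). Clstn3, a synaptic adhesion protein, fell by 4.47 (SE 0.65) from 21.9 and 29.5 FPKM to 0, 0.514 and 0.120. The other 4 were the histone gene Hist1h2ah (24.7 and 19.5 FPKM in Aged), the leukocyte tetraspanin Cd37 (19.996 and 20.7), the acyl-CoA-binding relative Dbil5 (11.5 and 31.5) and the vesicle protein Syngr2 (19.5 and 28.2). None of these 4 was above 0.860 FPKM in a treated library.

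Olfactory and vomeronasal receptor genes, which detect odours and pheromones, were set beside these calls as genes with no known use in the oocyte. Of the 437 that passed the filter, out of 1422, 13 (2.97%) were called lower and 0 higher, beside 0.753% of all genes called lower. Receptors pass the filter through the libraries where they are detected, which beside Aged were Aged + LRP1low (97.3% and 85.7% at 1 FPKM or more), so these counts describe the filtered genes and support no direction. Olfr60 was at 6.59 and 26.4 FPKM in Aged and at 0, 0 and 0.0539 in Aged + LRP1high (change -3.83, SE 0.66, adjusted p = 0.0439). Olfr1279 was at 25.0 and 6.78 FPKM in Aged against 0, 0.148 and 0.0154 (change -3.76, SE 0.67, adjusted p = 0.0439). The part of library composition in the 211 calls was not tested.

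Genes with a high mean over the Young libraries, in contrast, had a median change above 0. Of 283 nuclear protein-coding genes with a Young mean of 100 FPKM or more, 139 (49.1%) were above both Aged libraries in all 3 treated libraries and 11 below, against 3.85% and 12.4% of all genes. By limma 0 were called, and 13 higher and 4 lower had an unadjusted p under 0.05. Their median change was 2.33 with all libraries, 1.91 under quantile normalization, 0.81 without Aged replicate 1 and 3.72 without Aged replicate 2. The sign was kept in each of these fits, and the size followed the Aged library used. In Young replicates 1, 2 and 3 the median of the 283 genes was 2.61, 226 and 334 FPKM. The oocyte marker medians of these Young libraries were 0.892, 84.9 and 595 FPKM, so their mean joins unlike libraries. In Young replicate 1 the 283 genes held 88.5% of the TPM, and Gm10800 held 78.1%. The set thus includes this gene model and is not one of oocyte genes alone.

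Several of these genes were far apart between the groups although the test did not call them. Supt16, a subunit of the histone chaperone FACT, was at 8.39 and 0 FPKM in Aged and at 165, 307 and 237 in Aged + LRP1high, a change of 6.23 (SE 1.71, adjusted p = 0.112). Otub1, a deubiquitinase, was at 23.1 and 86.1 FPKM in Aged and at 803, 858 and 1274 in Aged + LRP1high (change 4.39, SE 1.51, adjusted p = 0.228). Arf6, a small GTPase of membrane traffic, was at 0 and 77.1 against 192, 250.2 and 473. In each of these the lowest treated library was more than double the higher Aged library. Actb, the cytoskeletal actin, was at 154 and 416 FPKM in Aged and at 1897, 4292 and 4355 in Aged + LRP1high, a change of 3.69 (SE 1.53, adjusted p = 0.37). Ythdf2, a reader of methylated RNA with a role in maternal RNA clearance, was at 4.96 and 41.0 FPKM in Aged against 216, 152 and 129. Ggact, an enzyme that takes apart protein crosslinks, was at 3.36 and 0 against 27.6, 98.5 and 53.8, and Rbm45, an RNA-binding protein, at 1.57 and 0 against 37.7, 155 and 57.3. The treated libraries lay above both Aged libraries for all of them.

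**Figure D4:**
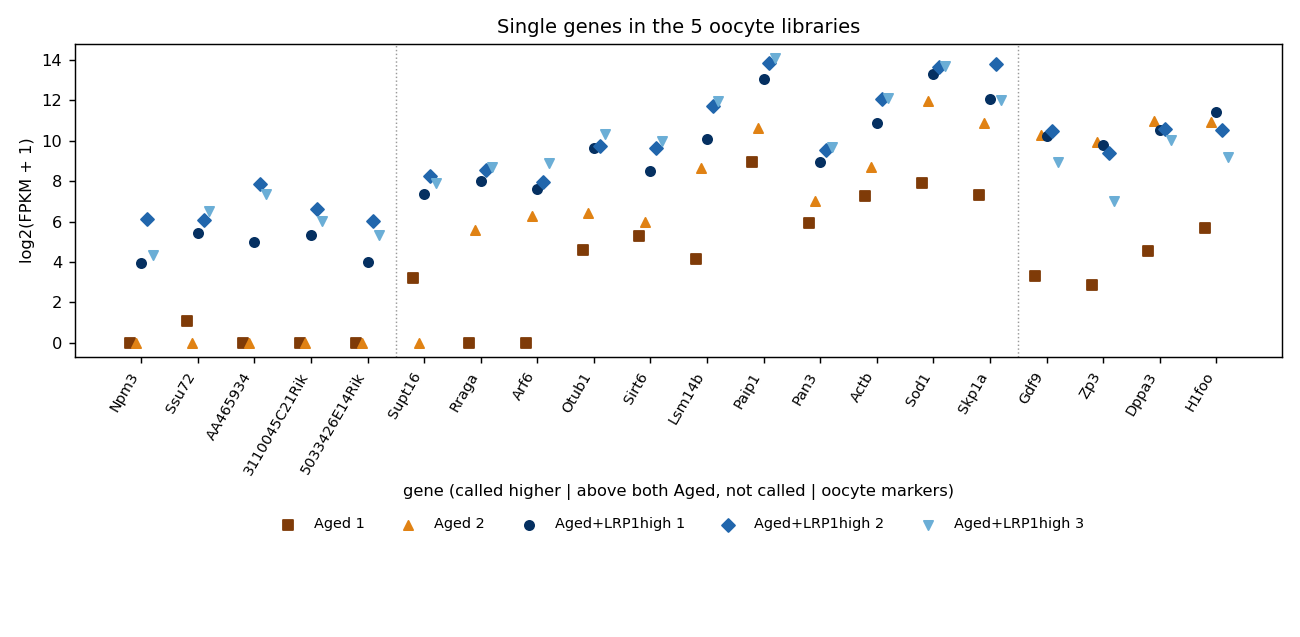
log2(FPKM + 1) of 20 genes in the 2 Aged and 3 Aged+LRP1high libraries: the 5 called higher, 11 that lay above both Aged libraries without a call, and 4 oocyte markers. In the left and middle sections all 3 treated libraries sit above both Aged libraries, whereas for the markers Aged replicate 2 sits among or above them and Aged replicate 1 below.

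The oocyte's own products did not separate the groups. Of the 10 oocyte markers and the 12 zona and secreted factors tested, 0 were called and 0 had an unadjusted p under 0.05 (limma). Zp3, the sperm receptor of the zona, was at 6.23 and 972 FPKM in Aged and at 876, 667 and 128 in Aged + LRP1high. Gdf9, the growth factor through which the oocyte directs its follicle, was at 9.04 and 1245 FPKM against 1181, 1427 and 483. Dppa3, which guards the methylation of the maternal genome, was at 22.6 and 2026 against 1454, 1521 and 1054, and H1foo, the oocyte linker histone, at 49.5 and 1962 against 2719, 1490 and 575. In each case the treated libraries lay above Aged replicate 1, and at least 1 of them lay below Aged replicate 2. The median change of the 10 markers was 2.40 with all libraries and -0.43 without Aged replicate 1, so no direction holds for them.

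Regulators of stored RNA lay on both sides of the Aged libraries. Of 21 genes of mRNA storage, translation and decay, 6 (28.6%) were above both Aged libraries in all treated ones and 3 (14.3%) below, beside 3.85% and 12.4% of all genes, a difference that was not tested. None of them (0) was called, and 1 had an unadjusted p under 0.05, toward higher (limma). Lsm14b, which packages stored messages, was at 16.9 and 402 FPKM in Aged and at 1069, 3382 and 3984 in Aged + LRP1high, a change of 4.84 (SE 2.00, adjusted p = 0.37). Paip1, a partner of poly(A)-binding protein, was at 484 and 1603 FPKM in Aged and at 8411, 14483 and 17249 in Aged + LRP1high (change 3.86, adjusted p = 0.37). Pan3, a subunit of a poly(A)-shortening enzyme, was at 60.8 and 128 against 494, 749.7 and 809. Btg4, the adaptor for maternal message decay, overlapped, at 65.5 and 834 FPKM against 998, 2346 and 719. The median change of the group was 1.40, and -0.27 without Aged replicate 1.

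The ubiquitin ligase genes of the oocyte came next. Of 21 genes of the SCF ligase and the oocyte Fbxw cluster, 5 (23.8%) were above both Aged libraries and 1 (4.76%) below, beside the same 3.85% and 12.4% of all genes. Of them 0 were called, and 0 had an unadjusted p under 0.05. Skp1a, the adaptor of the ligase, was at 159 and 1861 FPKM in Aged and at 4318, 14349 and 4087 in Aged + LRP1high (change 3.54, SE 2.62, adjusted p = 0.421). The cluster member Fbxw14 overlapped, at 22.8 and 790.0 FPKM against 1151, 918 and 362. The median change was 2.15 with all libraries and -0.12 without Aged replicate 1.

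Meiotic and maternal-effect genes mostly overlapped. Over all genes, for comparison, 3.85% were above both Aged libraries in all treated ones and 12.4% below. Among 32 meiotic cell cycle and spindle checkpoint genes 3 (9.38%) were above both Aged libraries and 0 below, 0 were called, and 0 had an unadjusted p under 0.05. Pttg1, or securin, was at 92.1 and 2005 FPKM against 3796, 1346 and 627, and Mos, the kinase that keeps the egg arrested, at 2.17 and 150.2 against 136, 96.1 and 71.7. Of 20 genes of the subcortical maternal complex and other maternal-effect genes, 2 (10%) were above both Aged libraries and 0 below. Nlrp14, a maternal-effect protein, was at 47.2 and 685 FPKM against 941, 703 and 1227. Among 17 cohesin and shugoshin genes, which hold chromosomes together until anaphase, 1 (5.88%) was above and 2 (11.8%) were below. Of them 0 were called, and 2 had an unadjusted p under 0.05, toward lower. Rad21, the cohesin subunit cut at anaphase, was the one above, at 3.08 and 19.9 FPKM against 33.6, 32.9 and 24.5.

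**Figure D5:**
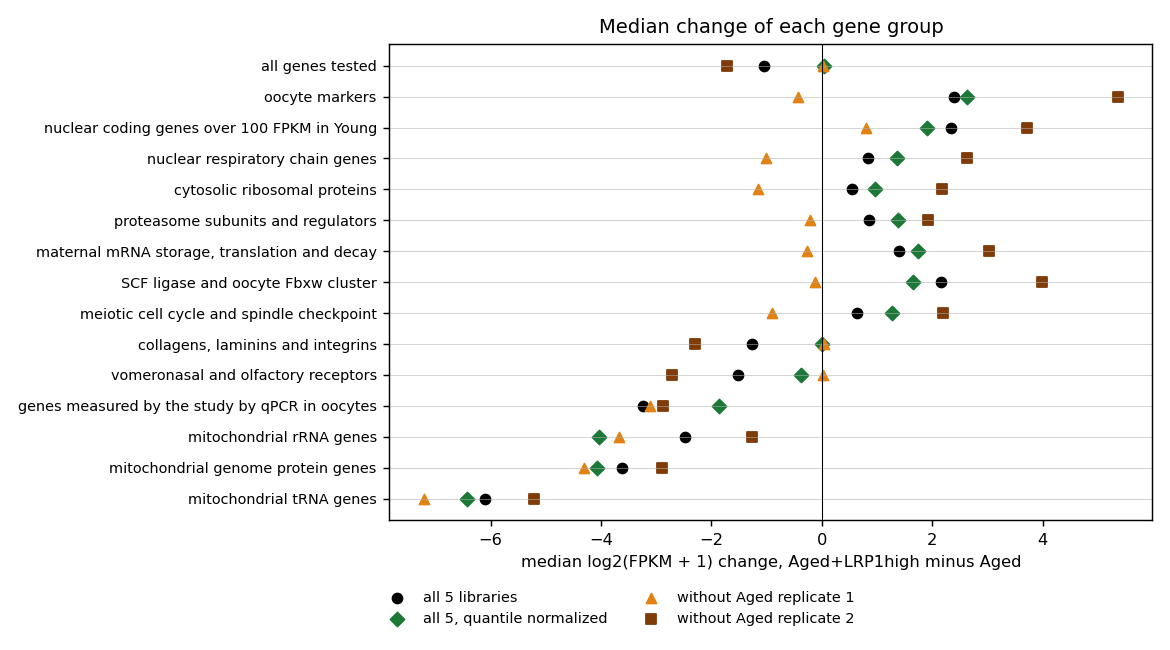
Median change in log2(FPKM + 1) between Aged+LRP1high and Aged of 14 gene groups and of all genes, with all 5 libraries, under quantile normalization, and without either Aged library. Mitochondrial groups and the qPCR genes lie left of 0 in all 4 fits and the abundant nuclear genes right of it, whereas the oocyte markers cross 0 without Aged replicate 1 (2.40 to -0.43).

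Nuclear genes of the respiratory chain did not follow the mitochondrial ones. Of 83 tested, 8 (9.64%) were above both Aged libraries and 2 (2.41%) below, against 3.85% and 12.4% of all genes. In the limma test 0 were called, and 5 had an unadjusted p under 0.05, each toward higher. Uqcrh, a complex III subunit, was at 0.866 and 259 FPKM in Aged and at 238, 692 and 231 in Aged + LRP1high, and Cox7c of complex IV at 11.6 and 327 against 324, 657 and 152. Both overlapped, with Aged replicate 2 among the treated libraries. The median change was 0.84 with all libraries and -1.01 without Aged replicate 1, so its sign rested on that library.

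Protein synthesis and turnover were described by a group each. Of 84 cytosolic ribosomal protein genes tested, whose reads can be shared with pseudogenes, 2 (2.38%) were above both Aged libraries and 2 (2.38%) below, 0 were called, and 1 had an unadjusted p under 0.05. Of 47 proteasome genes, 9 (19.1%) were above both Aged libraries, 3 (6.38%) below and 0 called, with an unadjusted p under 0.05 for 3 higher and 2 lower. Over all genes 3.85% were above and 12.4% below. Psmb6, a catalytic subunit, was at 0 and 88.7 FPKM in Aged and at 128, 179.6 and 115 in Aged + LRP1high, and Psmb7, another, at 3.85 and 105 against 253, 128 and 392. The medians of the ribosomal and proteasome groups, 0.54 and 0.85 with all libraries, were -1.15 and -0.21 without Aged replicate 1 and -0.23 and 0.11 under median-of-ratios scaling.

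Antioxidant enzymes had 2 of 30 members (6.67%) above both Aged libraries and 4 (13.3%) below, beside 3.85% and 12.4% of all genes. Of them 0 were called, and 4 had an unadjusted p under 0.05, each lower. Sod1, the cytosolic superoxide dismutase, was at 236 and 3951 FPKM in Aged and at 9899, 12944 and 13185 in Aged + LRP1high, a change of 3.62 (SE 2.16, adjusted p = 0.37). Sod1 thus stood above both Aged libraries in each treated library without a call. Prdx1, a peroxide-reducing enzyme, overlapped, at 39.6 and 337 FPKM against 244, 133 and 74.5.

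A list of 12 genes measured by qPCR in these oocytes had been chosen on these libraries, so that its direction is not independent evidence. All 12 were lower in every treated library than in both Aged libraries, 2 were called, and 11 had an unadjusted p under 0.05 by limma. Of all genes tested, 12.4% lay below both Aged libraries and 0.753% were called lower. At that p and a fold over 1.5, 9.94% were lower. Utrn, the dystrophin relative utrophin, was at 29.0 and 13.4 FPKM in Aged and at 1.69, 0.433 and 0.0588 in Aged + LRP1high, and fell by 3.70 (SE 0.65, adjusted p = 0.0439). Nmnat3, a mitochondrial enzyme of NAD synthesis, was at 7.35 and 19.5 against 0, 0.0556 and 0.190, and fell by 3.60 (SE 0.70, adjusted p = 0.0467).

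The other 10 were not called. Rnf41, a ubiquitin ligase, was at 11.7 and 11.2 FPKM in Aged and at 0.945, 0.126 and 0.273 in Aged + LRP1high (change -3.15, SE 0.73, adjusted p = 0.0678). Rptor, the scaffold of mTOR complex 1, was at 11.4 and 12.7 against 0.449, 0.279 and 0.0999 (change -3.36, SE 0.80, adjusted p = 0.0747). Smchd1, a chromatin protein of gene silencing, was at 28.3 and 20.8 against 3.33, 1.82 and 0.290, and Lama5, a laminin chain, at 9.55 and 20.4 against 4.97, 0.414 and 0.228. Trim2, Smchd1, Lama5, Usp21, Smarcad1, Tiprl, Bfar and Usp10 had changes between -3.46 and -2.13, with adjusted p from 0.0903 to 0.37. Usp10, a deubiquitinase, was at 46.7 and 35.2 FPKM against 23.2, 14.2 and 1.33. The median change of the list was -3.24 with all libraries, -1.86 under quantile normalization, -3.42 under median-of-ratios scaling, -3.12 without Aged replicate 1 and -2.88 without Aged replicate 2.

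The wider gene groups of these pathways had medians nearer to that of all genes. Among 26 tested genes of NAD synthesis and consumption, 2 (7.69%) were called lower, beside 0.753% of all genes. They were Nmnat3 and Bst1, an enzyme that breaks down NAD at the cell surface. The study names both from these same oocytes, so the share is not independent evidence. Bst1 was at 21.7 and 11.2 FPKM in Aged and at 0, 0.00872 and 0 in Aged + LRP1high, and fell by 4.05 (SE 0.74, adjusted p = 0.0439). Sirt6, a deacylase of chromatin that uses NAD, ran the other way, at 37.8 and 61.2 FPKM in Aged and at 364, 791 and 1001 in Aged + LRP1high (change 3.75, SE 1.49, adjusted p = 0.344). The median change of the NAD group was -1.11, beside -1.05 for all genes.

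Of 177 Usp, Rnf and Trim genes tested, which are ubiquitin proteases and ligases, 1 (0.565%) was called lower, beside 0.753% of all genes. In this group 8 (4.52%) were above both Aged libraries against 29 (16.4%) below. The one called was Trim9, a ubiquitin ligase best known from neurons, at 29.8 and 11.6 FPKM in Aged and at 0, 0.202 and 0.220 in Aged + LRP1high, and it fell by 4.12 (SE 0.71, adjusted p = 0.0439). Of 72 collagen, laminin and integrin genes, 23 (31.9%) were below both Aged libraries and 2 (2.78%) above, beside 12.4% and 3.85% of all genes. In the limma test 0 of them were called, and 17 had an unadjusted p under 0.05, each lower. At that p and a fold over 1.5, 9.94% of all genes were lower. Of all 81 genes of this list, 92.6 and 42.0% reached 1 FPKM in Aged and 100 and 98.8% in Aged + LRP1low. In Aged + LRP1high 25.9, 14.8 and 7.41% did. Members can pass the filter through the libraries where they are high, so these counts describe the filtered genes and support no direction. Lamb1, a laminin chain, overlapped, at 9.20 and 77.9 FPKM against 89.4, 74.4 and 14.2. The matrix group's median change was -1.27 with all libraries, 0.00 under quantile normalization and 0.04 without Aged replicate 1, and whether the group differed from all genes was not tested.

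DNA damage genes, mTOR regulators and the BCL2 family had 0 called members (limma). Of 33 DNA damage genes, 2 (6.06%) were above and 9 (27.3%) below both Aged libraries, against 3.85% and 12.4% of all genes, and 5 had an unadjusted p under 0.05, each lower. Chek1, a checkpoint kinase, overlapped, at 9.97 and 61.2 FPKM in Aged against 86.6, 41.1 and 98.2. Of 19 mTOR genes, 3 (15.8%) were above and 4 (21.1%) below, with 1 higher and 3 lower at an unadjusted p under 0.05. Rraga, a GTPase that carries amino acid signals to mTOR complex 1, was at 0 and 47.5 FPKM in Aged and at 259.8, 374 and 409.7 in Aged + LRP1high, a change of 5.62 (SE 1.90, adjusted p = 0.216). Bcl2l10, the BCL2 relative of the oocyte, overlapped, at 16.1 and 1252 FPKM against 1141, 1383 and 310.5, and 1 of 15 BCL2 family genes had an unadjusted p under 0.05, toward lower.

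Granulosa cells, the follicle cells around the oocyte, were also sequenced in 3 Aged + LRP1high and 2 Aged libraries. The change in oocytes minus that in granulosa cells was tested by limma for 19494 genes, and 1 (0.00513%) was called, the gene model Gm10717. None of the 37 mitochondrial genes was (smallest adjusted p = 0.262). Their median change was -5.76 in oocytes and -1.34 in granulosa cells, a difference that this test did not establish for any single gene. Against the other groups of oocytes, 0 genes (0%) were called between Aged + LRP1high and Aged + Unsorted, 0 (0%) between Aged + LRP1high and Young (781 and 889 genes at an unadjusted p under 0.05 by limma), and 7291 (26%) between Aged + LRP1high and Aged + LRP1low, whose libraries had the low oocyte marker medians given above.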

How the data were processed

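Mouse oocyte RNA was sequenced in 12 libraries, of which 3 Aged + LRP1high and 2 Aged were compared, grouped by their labels. The authors deposited FPKM, TPM and coverage (mean read depth) for 55335 gene identifiers, made with HISAT2 2.2.1 and StringTie 1.3.3b per the submitters' processing notes. These notes name mm9, but 54587 identifiers carry the version and coordinates of GENCODE M21 (GRCm38), which was used. The labels give a stranded kit on polyA RNA and the methods Smart-seq2, and the strand setting is not given, so overlapping and antisense genes are uncertain. Repeated identifiers were summed. Without counts, no interval for counting error is given. Depth was read from the coverage-to-FPKM ratio, as its median among the 21693 genes that have one exon and one transcript.

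Values were analysed as log2(FPKM + 1). The 28004 genes averaging 1 FPKM or more in the 12 libraries were fitted by limma 3.58.1 (lmFit, eBayes, R 4.3.3) with 5 groups in one model and Benjamini-Hochberg adjustment, a fit checked on simulated data. Alternatives were other scalings, TPM, filters, pseudocounts, weights, sample sets, a replicate block and leaving out each library. Library measures were compared by exact permutation tests. Named genes came from the 12 qPCR genes, every gene called higher, the 12 called lower with the largest fall and the 8 such protein-coding genes, in each list up to 4 called members and the 4 with the highest mean in Young, and, among genes of 100 FPKM or more in Young, the 10 with the smallest p in each direction. Not every gene that these rules name is given in the text. mt-Tg was chosen after its values were seen. The NAD list holds 26 names, which match 27 identifiers. The members and lists were chosen with earlier results of these data known. Granulosa cell libraries of other groups were not used.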

Additional observations from a re-analysis of the deposited data

Results flagged for a closer look

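The change of Gm10717, a gene model at chr9:3025417-3033289, differed between oocytes and granulosa cells by a test of the difference itself (-16.3 on the log2 scale, SE 1.55, adjusted p = 0.00175 by limma). Its FPKM was 923 and 378 in the Aged oocyte libraries and 1.40, 24.4 and 17.0 in Aged + LRP1high, a change of -5.84 that was not called on its own (adjusted p = 0.316). In granulosa cells neither Aged library listed it above 0, and the 3 Aged + LRP1high libraries held 851, 3363 and 886 FPKM, so the fitted difference depends on the pseudocount. It was lower in 3 of 3 treated oocyte libraries and higher in 3 of 3 treated granulosa cell libraries. Without replicate 1 of the granulosa Aged + LRP1high libraries 0 genes were called in this limma test, with 2199 at an unadjusted p under 0.05.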

How the results depend on the processing

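The calls moved with nearly every choice. Against 5 and 211 genes called higher and lower by limma, quantile normalization gave 1 and 7, median-of-ratios scaling 0 and 0 (118 and 1786 at an unadjusted p under 0.05), TPM 15 and 1082, a pseudocount of 0.1 gave 0 and 0 (289 and 2355 unadjusted), no filter 11 and 1099, a mean FPKM of at least 10 gave 0 and 1 (138 and 61 unadjusted), protein-coding genes alone 0 and 0 (198 and 1615 unadjusted), the 5 libraries alone 20 and 469, the trend and robust settings 0 and 15 (198 and 4086 unadjusted), and library quality weights 0 and 0 (0 and 916 unadjusted). Unadjusted p-values gave 259 and 2784. Leaving out 1 library gave 0 to 225 higher and 0 to 10578 lower. The 8 libraries of at least 50 FPKM in oocyte markers, chosen after seeing the data, gave 13 and 2193, with 202 of the 211 but 0 of the 5 among them. The cause of these moves was not tested.

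With the replicate number as a block 0 genes were called higher and 0 lower (140 and 2128 unadjusted). The libraries share only a number: deviations of libraries with the same number correlated at -0.44 to 0.44 (median 0.01) and those of others at -0.52 to 0.52.

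The test of oocytes against granulosa cells called 1 gene, 12 under quantile normalization, 1565 without oocyte Aged replicate 1, and 0 to 8666 over all fits that left out 1 library. The difference of the oocyte marker medians, 185 FPKM, ran from -167 to 538 without 1 library, and that of the nuclear respiratory chain medians, 5.94 FPKM, from -21.4 to 33.3. Of 64 genes examined, 0 turned direction in an alternative that gave a value, and each of the 29 called ones lost its call in 7 to 13 of them. That count of 0 supports no direction. Every called gene and every qPCR gene lay above or below both Aged libraries in all treated ones. Leaving out a library cannot turn such a gene. These 64 leave out the oocyte markers H1foo, Dppa3 and Zp3, which did turn. Without Aged replicate 1 their changes of 2.07, 2.60 and 2.33 became -0.57, -0.61 and -1.20. The low depth of the Aged libraries limits single values.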
